A study of Arabidopsis thaliana with 8 samples.

Results

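CHLM and CHLI2 are nuclear genes of chlorophyll synthesis, and their transcripts were followed in Arabidopsis thaliana plants moved to the cold. CHLM (AT4G25080) encodes magnesium protoporphyrin IX methyltransferase and CHLI2 (AT5G45930) encodes an I subunit of magnesium chelatase. The pair was selected on its measured changes at the cold times, so its own levels and changes are given as a description. Whether a change of the pair passed the threshold applied to all probe sets is stated as part of that description and supports nothing. Each of the 2 genes was measured by 1 probe set, the group of short oligonucleotides that reports on a transcript. They are 2 of the 13356 genes paired with a probe set of their own, of which 8034 were bright enough to be tested.

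RNA came from whole plants of the Col-0 accession and was hybridised to one-colour ATH1 arrays, 2 arrays in each of 4 groups. All plants were wild type and grew on agar at 24 °C in continuous light of 100 µmol m-2 s-1, after the seed had spent 4 days at 4 °C, and they were 10 days old when treatment began. The 0 h plants were harvested under those growth conditions. The other groups spent 1 h, 24 h or 7 days at 4 °C, and their treatment protocol gives a light intensity of about 25 µmol m-2 s-1, although their description field still lists 100. Temperature and light therefore changed together in every cold group, and age as well in the 7-day group, so these cannot be told apart. No warm plants of matching age were analysed here. The labels do not tie the arrays of a group to separate cultures, so p-values here measure only the scatter between these arrays, and that scatter may be technical.

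Chlorophyll is a tetrapyrrole made in plastids from glutamate. A common trunk of enzymes builds protoporphyrin IX, the branch point at which ferrochelatase inserts iron to make heme and magnesium chelatase inserts magnesium to start the chlorophyll branch. Magnesium chelatase has H, D and I subunits. The I subunit is an ATPase, and in Arabidopsis it is encoded by the closely related genes CHLI1 and CHLI2. CHLM acts on the product of the chelatase and adds a methyl group from S-adenosylmethionine, and the remaining steps of the branch include the light-dependent reduction of protochlorophyllide by the POR enzymes. Free intermediates of the branch sensitise cells to light, and chlorophyll synthesis is known to be sensitive to chilling.

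Signals are the authors' MAS5 values, on a linear scale that gives every array nearly the same trimmed mean of about 100.01. Changes are on the scale log2(signal + 8), which understates the change of dim genes, and come from 1 limma model over all 8 arrays. A probe set is called when its adjusted p (Benjamini-Hochberg over 15017 tested probe sets) is under 0.05. Replicate arrays correlated at r = 0.956 to 0.972 over probe sets. COR15A, a cold-induced gene of chloroplast protection used to check the labels, had signals of 31.6 and 19.7 at 0 h, 10.1 and 104 at 1 h, 4523 and 7758 at 24 h, and 4944 and 4316 at 7 days. The 3'/5' signal ratio of the actin control probe sets, a sign of RNA quality and labelling, was 3.84 and 2.95 at 0 h, 5.32 and 3.95 at 1 h, 6.53 and 3.44 at 24 h, and 3.83 and 5.91 at 7 days. That of the GAPDH control probe sets was between 1.22 and 1.45 on every array. The part of RNA quality in the results below was not tested. Scaling moved the balance of calls over all probe sets: 43.5% of the calls at 24 h and 46.1% of those at 7 days against 0 h were higher in the cold, and these shares were 53.5% and 58.4% when arrays were scaled to equal medians. For 24 h against 1 h the share was 43.5%, and 57.1% with equal medians, which shifted the median of all probe sets by 0.11.

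CHLM had a signal of 1088 and 1439 on the 0 h arrays, 1223 and 1303 on the 1 h arrays, 631 and 675 on the 24 h arrays, and 891 and 930 on the 7-day arrays. Both 24 h arrays lay below all other arrays, the 7-day arrays lay between the 24 h arrays and the warm and 1 h arrays, and the 1 h arrays lay within the range of the 0 h arrays. Group means were 1264 ± 248 at 0 h, 1263 ± 57.1 at 1 h, 653 ± 30.9 at 24 h and 910 ± 27.6 at 7 days (SD, n = 2 each). In descending order the means ran 0 h and 1 h, then 7 days, then 24 h, and only the arrays of 0 h and 1 h overlapped. The changes at 7 days against 0 h and against 24 h were not called, so this order describes the arrays alone.

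The CHLM signal changed by -48.3% at 24 h relative to 0 h, with a gap of 414 between the nearest arrays of the groups. The corresponding log2 change was -0.93 ± 0.19 (SE; 95% interval -1.35 to -0.52), and CHLM was called lower. Of all tested probe sets, 9.18% had a more negative change in this comparison. Relative to 1 h the change at 24 h was -0.94 (interval -1.36 to -0.53), again called, so the low level was reached between the 1 h and 24 h harvests. At 1 h against 0 h the log2 change was 0.01 (-0.40 to 0.43). With whole plants as the sample, fewer cells that express a gene and less of its RNA per cell cannot be told apart.

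At 7 days the CHLM signal was at -28.0% relative to 0 h, and its nearest arrays were 159 apart. The log2 change of -0.46 ± 0.19 (SE; interval -0.87 to -0.04) was not called against 0 h. Set against 24 h, the 7-day mean was 1.39 times as high and the log2 change was 0.47 (interval 0.06 to 0.89), which was not called either. The 7-day arrays were thus separate from the 0 h and the 24 h arrays in signal, but neither separation passed the threshold over all probe sets. Quantile normalization, in which every array is given the same distribution of signals, put the 7-day change against 0 h at -0.61 and past the threshold.

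CHLI2 had a signal of 171 and 138 on the 0 h arrays, 163 and 176 on the 1 h arrays, 219 and 223 on the 24 h arrays, and 373 and 401 on the 7-day arrays. The 7-day arrays stood above all others, the 24 h arrays stood above every 0 h and 1 h array, and the 0 h and 1 h arrays overlapped. Group means were 154 ± 23.3 at 0 h, 169 ± 9.29 at 1 h, 221 ± 3.03 at 24 h and 387 ± 19.5 at 7 days (SD, n = 2 each). In ascending order the means ran 0 h and 1 h, 24 h, 7 days, and only the arrays of 0 h and 1 h overlapped. The changes at 24 h against 0 h and against 1 h were not called, so this order describes the arrays alone.

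The CHLI2 mean at 7 days was 2.51 times that at 0 h, with a gap of 202 between the nearest arrays. The log2 change was 1.29 ± 0.18 (SE; 95% interval 0.89 to 1.69) and CHLI2 was called higher. Of all tested probe sets, 2.25% had a larger increase in this comparison. Against 24 h the 7-day mean was 1.75 times as high, with a log2 change of 0.79 (interval 0.39 to 1.18) that was called with all arrays but not when any 1 of the 4 arrays of those times was left out, which gave changes of 0.77, 0.80, 0.84 and 0.74. In that comparison 5.35% of the tested probe sets had a larger increase.

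The earlier CHLI2 change was smaller. At 24 h the mean was 43.0% above 0 h, and the log2 change of 0.50 ± 0.18 (SE; interval 0.11 to 0.90) was not called. It was called under quantile normalization, with a change of 0.53, and with arrays scaled to equal medians, with 0.59. Relative to 1 h the 24 h change was 0.37 (interval -0.03 to 0.77), and at 1 h against 0 h it was 0.13 (interval -0.26 to 0.53), with neither called. CHLI1, the close paralogue, was not analysed here, and cross-hybridisation of its transcript with the CHLI2 probe set was not tested.

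**Figure D1:**
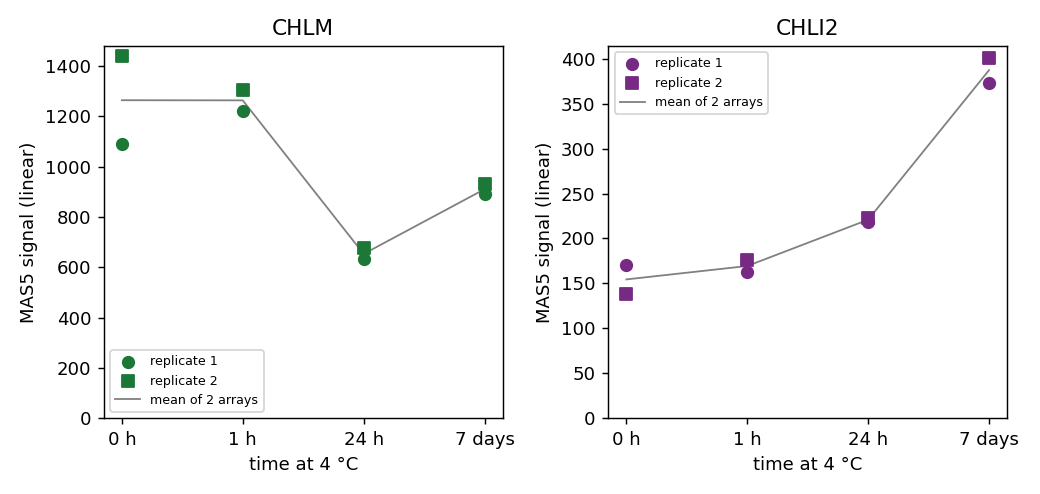
Signal of CHLM and CHLI2 (linear MAS5 signal, axis from 0) on each of the 8 arrays by time at 4 °C. Points are arrays and the grey line joins the group means. CHLM was lowest on the 24 h arrays, at 631 and 675, and CHLI2 was highest on the 7-day arrays, at 373 and 401.

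Relative to 0 h, the signals of CHLM and CHLI2 lay on opposite sides at 24 h and at 7 days, in the same RNA. On each array the log2 difference between CHLM and CHLI2 was taken and set relative to its mean at 0 h, which removes any factor common to both genes on that array. It was -0.35 and 0.35 on the 0 h arrays, -0.11 and -0.13 on the 1 h arrays, -1.47 and -1.40 on the 24 h arrays, and -1.73 and -1.77 on the 7-day arrays. All 4 arrays of 24 h and 7 days lay below all 4 arrays of 0 h and 1 h. The pair was selected on these changes, so this separation is a description and adds no support. How often the arrays of other probe sets separate in this way is not given. Nothing is therefore read from non-overlapping arrays, for the pair or for any other gene named here. Most of the shift at 24 h came from CHLM (-0.93, against 0.50 for CHLI2), and at 7 days CHLI2 had the larger share (1.29, against -0.46 for CHLM). The 0 h arrays differed from each other by more than the arrays of any other group, with the lower CHLM signal and the higher CHLI2 signal on replicate 1.

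**Figure D2:**
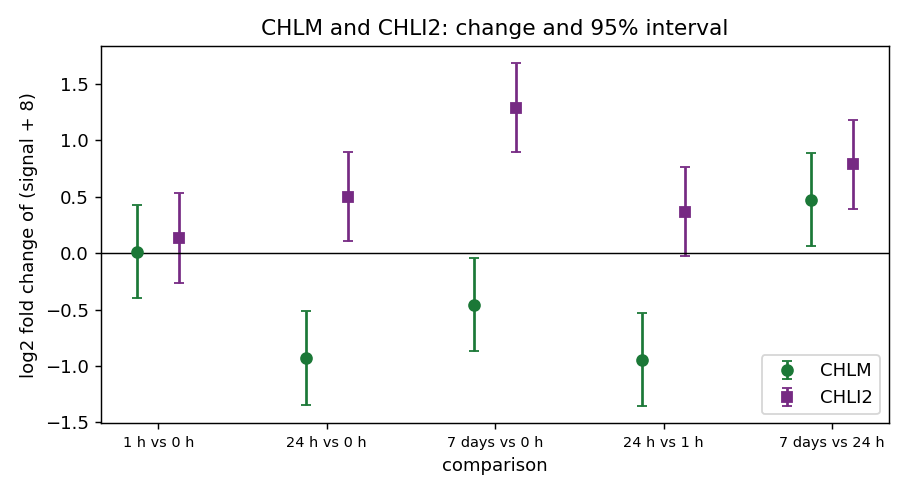
Log2 change of CHLM and CHLI2 in the 5 comparisons, with 95% intervals from the limma model. Each change is on the log2(signal + 8) scale. The CHLM interval lies below 0 for 24 h against 0 h (-1.35 to -0.52) and the CHLI2 interval lies above 0 for 7 days against 0 h (0.89 to 1.69).

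Set against the whole array, the calls of the pair read as follows. At 1 h neither gene was called, where 0.313% of all tested probe sets rose and 0.00666% fell. At 24 h CHLM fell and CHLI2 was not called, where 11.8% of all tested probe sets rose and 15.3% fell. At 7 days CHLI2 rose and CHLM was not called, where 9.18% rose and 10.7% fell. For 24 h against 1 h CHLM fell, beside 11.3% of probe sets that rose and 14.7% that fell, and for 7 days against 24 h CHLI2 rose, beside 4.83% that rose and 4.46% that fell. The pair was chosen for these changes, so nothing is read from its counts.

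The rest of the tetrapyrrole pathway was covered in part. Lists of trunk enzymes, the chlorophyll branch, the heme, bilin and siroheme branch, chlorophyll breakdown and regulators of chlorophyll synthesis held 63 genes beside the pair. Of these, 15 had a probe set of their own, 13 were tested, and HEMA3 (signals of 1.25 to 12.9) and HEMB2 (9.21 to 23.8) were too dim on every array. The other 48 were not analysed here, and among them are the H and D subunits of magnesium chelatase, CHLI1, PORA, PORC and ferrochelatase.

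At 1 h against 0 h, 0 of the 13 tested pathway genes were called, and their median log2 change was 0.03, against -0.01 over all tested probe sets. At that time limma called 48 probe sets in all, and 685 had an unadjusted p under 0.05. At 24 h against 0 h, 4 of the 13 fell, 0 rose and 9 did not pass the test. The median was -0.27, against -0.06 over all probe sets, and 10 of the 13 changes were below 0. The 4 that fell were HEME1, HEMF2, SIRB and AT4G17840, in a comparison in which 15.3% of all tested probe sets fell. HEMF2 passed the brightness filter through its 0 h and 7-day arrays alone, so its fall was favoured and adds no support to either count. The share of all probe sets below 0 is not given, and nothing particular to the pathway is read from these counts. Leaving out 0 h replicate 1 reduced the number called to 1, and leaving out 24 h replicate 1 reduced it to 2.

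Among the trunk genes, HEME1, a uroporphyrinogen III decarboxylase, had signals of 331 and 317 at 0 h, 326 and 366 at 1 h, 169 and 212 at 24 h, and 237 and 236 at 7 days. It was lowest on both 24 h arrays and the 7-day arrays were intermediate, the same order of times as for CHLM. Its log2 change at 24 h was -0.75 ± 0.18 (SE; limma adjusted p = 0.0104 against 0 h), and -0.84 against 1 h (adjusted p = 0.00581). The first call did not survive the omission of 0 h replicate 1 (adjusted p = 0.0595) or of 24 h replicate 1 (0.0703), out of a range of 0.00907 to 0.0703 over 16 alternatives. The second was lost without 1 h replicate 2 (0.0548), out of a range of 0.00517 to 0.0548. At 7 days the HEME1 change was -0.44 against 0 h (adjusted p = 0.111) and 0.31 against 24 h (0.323). Neither was called, so its order of times describes the arrays alone.

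HEMF2, listed with the coproporphyrinogen oxidases of the trunk, was dim. Its signals were 33.2 and 31.0 at 0 h, 13.8 and 26.0 at 1 h, 7.21 and 7.01 at 24 h, and 30.1 and 24.1 at 7 days. It passed the brightness filter through its 0 h and 7-day arrays alone, so a lower value at 24 h was favoured by the filter and its call adds no support to the count of pathway genes. The fitted change at 24 h was -1.41 ± 0.33 (SE), with a limma adjusted p of 0.0151 when no filter was applied, and it ran between -2.03 and -0.71 with a pseudocount of 1 or 32 in place of 8. With the filter, leaving out 0 h replicate 1 ended the call (adjusted p = 0.0506), out of a range of 0.00284 to 0.0506 over the alternatives.

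The remaining trunk genes were not called in any comparison. HEMA2, a glutamyl-tRNA reductase at the entry of the pathway, had a log2 value of -0.29 at 24 h (limma adjusted p = 0.364). GSA1, the aminotransferase that makes 5-aminolevulinic acid, had a value of -0.12 (0.747), and HEMB1, a 5-aminolevulinic acid dehydratase, had -0.40 (0.187). HEME2, the other uroporphyrinogen III decarboxylase, had -0.11 (0.692), set beside the -0.75 of HEME1. AT5G63290, entered on the trunk list and known in the annotation used here by its locus code alone, had 0.90 at 24 h (0.0559) and 0.95 at 7 days (0.0573). It passed the filter through its 24 h and 7-day arrays only. Its 24 h value was called with quantile normalization (0.0417), equal medians (0.0411), no intensity trend (0.0335) or without 1 h replicate 1 (0.0491), and its 7-day value with the first 3 of these (0.0398, 0.0405 and 0.0360).

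In the chlorophyll branch, PORB, a light-dependent protochlorophyllide oxidoreductase, was measured beside the pair. Its signals were 940 and 1702 at 0 h, 948 and 1743 at 1 h, 2041 and 2171 at 24 h, and 2952 and 3369 at 7 days. All 4 arrays of 24 h and 7 days were above the 0 h and 1 h arrays, the replicates of which differed widely. PORB rose at 7 days against 0 h by a log2 change of 1.31 ± 0.31 (SE; limma adjusted p = 0.0119), beside 1.29 for CHLI2. Omitting either 0 h replicate 1 (adjusted p = 0.0823) or 7-day replicate 2 (0.0862) ended the PORB call, out of a range of 0.00301 to 0.0862. At 24 h its change of 0.73 was not called (adjusted p = 0.102), but it was without 0 h replicate 2 (0.0216) and with the replicate number as a block (0.0378). AT1G74470, the geranylgeranyl reductase that makes the phytyl tail of chlorophyll, had -0.07 at 24 h (0.841) and 0.34 at 7 days (0.311).

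In the side branch to siroheme, SIRB, the sirohydrochlorin ferrochelatase, had signals of 209 and 198 at 0 h, 207 and 211 at 1 h, 137 and 129 at 24 h, and 161 and 167 at 7 days. Its replicates were close, the 24 h arrays were lowest and the 7-day arrays lay between, again the order of times of CHLM. At 7 days its changes of -0.30 against 0 h (limma adjusted p = 0.254) and 0.29 against 24 h (0.331) were not called. The order therefore describes the arrays alone. The SIRB log2 change was -0.58 ± 0.17 at 24 h against 0 h (SE; limma adjusted p = 0.0261) and -0.62 against 1 h (0.0203). The first call held in 10 of 16 alternatives and was lost on leaving out any array of those times, with 0.129 and 0.0811 for omission of the 0 h arrays and 0.0583 and 0.104 for omission of the 24 h arrays, in the order of their numbers. The second held in 12 and was lost when either 1 h array (0.103 and 0.107) or 24 h replicate 2 (0.0872) was omitted. Equal medians also ended both calls (0.0707 and 0.0713).

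NOL, a chlorophyll b reductase and the 1 measured gene of chlorophyll breakdown, had -0.27 at 24 h (limma adjusted p = 0.398). The regulators' list had 2 measured genes, both known in the annotation used here by locus code alone. AT4G17840 had signals of 449 and 480 at 0 h, 509 and 407 at 1 h, 227 and 222 at 24 h, and 274 and 186 at 7 days. Its 24 h and 7-day arrays were all below its 0 h and 1 h arrays. It fell at 24 h by a log2 change of -1.02 ± 0.21 (SE; adjusted p = 0.00429), a call kept in 16 of 16 alternatives, and at 7 days by -1.01 (0.00647). The 7-day call was lost without 7-day replicate 2 (0.0633), and the change of -0.99 against 1 h at 24 h (0.00514) was lost without 1 h replicate 1 (0.0604). AT2G35260 had 0.07 at 24 h (0.815) and -0.15 at 7 days (0.607).

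**Figure D3:**
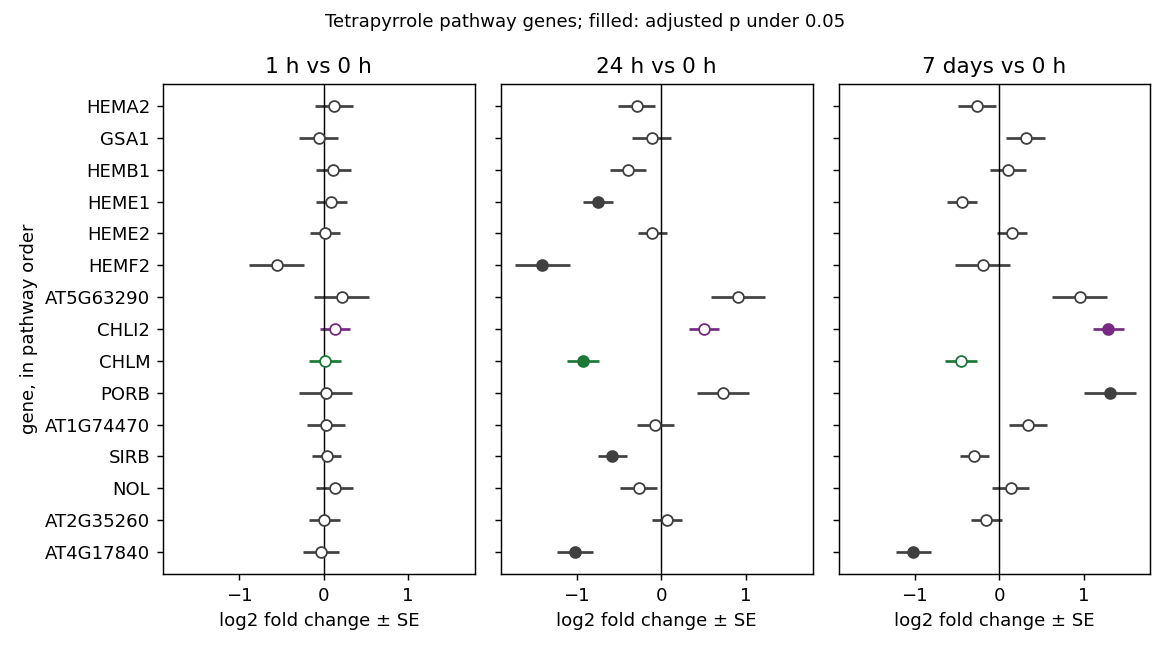
Log2 change against 0 h of CHLM, CHLI2 and the 13 other tested pathway genes at 1 h, 24 h and 7 days, in pathway order. Bars are standard errors, filled points are called at an adjusted p under 0.05 in limma and open points are not. At 24 h the called genes lie between -1.41 and -0.58, all below 0. The lowest of them, HEMF2, passed the brightness filter through its 0 h and 7-day arrays alone.

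At 7 days against 0 h, 1 of the 13 pathway genes rose (PORB), 1 fell (AT4G17840) and 11 did not pass the test, beside 9.18% of all tested probe sets that rose and 10.7% that fell. Leaving out 7-day replicate 2 reduced the number called to 0, and leaving out 0 h replicate 1 reduced it to 1. The median change was 0.10, against -0.05 over all tested probe sets. For 24 h against 1 h, 0 rose, 3 fell (HEME1, SIRB and AT4G17840) and 10 did not pass, beside 11.3% of all tested probe sets that rose and 14.7% that fell. The median was -0.40, against -0.08 over all probe sets, and the number called dropped to 1 when 1 h replicate 1 was omitted and to 2 when 1 h replicate 2 or 24 h replicate 2 was omitted. Nothing particular to the pathway is read from these counts. HEMF2 was called higher for 7 days against 24 h, with a log2 change of 1.21 (limma adjusted p = 0.0398, 0.0671 with no filter). It passed the filter through its 0 h and 7-day arrays alone, so this call was favoured and adds no support. The other 12 did not pass and 0 fell, beside 4.83% of all tested probe sets that rose and 4.46% that fell. The values ran between -0.22 and 1.21, the highest being that of HEMF2. Of the 13 values 12 were above 0, and the median was 0.31, against -0.01 over all probe sets. CHLM, at 0.47, and CHLI2, at 0.79, were above the pathway median. The share of all probe sets above 0 is not given, so nothing particular to the pathway is read from these values.

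Genes outside pigment synthesis were listed as markers of green tissue. They are transcripts too, so they cannot separate a change in the share of green tissue from a change in their own level. The part of a change in green tissue in the values of CHLM and CHLI2 was not tested. RCA, SBPASE and PRK, the 3 measured of 10 markers of photosynthetic carbon fixation, were not called in any comparison. Their median log2 change against 0 h was -0.01 at 24 h and -0.03 at 7 days. At these times PRK had -0.53 and -0.38, RCA 0.13 and -0.03, and SBPASE -0.01 and 0.18. Their summed signal was 8632 to 12964 at 0 h, 10797 to 12828 at 1 h, 8537 to 11482 at 24 h and 9224 to 10695 at 7 days. None was listed at 0 on any array. Of 24 nuclear photosystem subunits 4 were tested, and 0 of them were called in any comparison. These genes are bright, like CHLM, and quantile normalization moved them down: under it PRK (-0.83), PSAE1 (-0.54) and PSAN (-0.40) were called lower at 24 h against 0 h, and PRK (-0.83), PSAE1 (-0.72), RCA (-0.44), PSBW (-0.44) and PSAN (-0.42) at 7 days. PRK was also called lower at 24 h against 0 h without 0 h replicate 1 (-0.89; limma adjusted p = 0.0327). For 24 h against 1 h, quantile normalization likewise called PRK (-0.75), PSBW (-0.47) and PSAN (-0.47) lower. PRK, at -0.62 in that comparison, was also called with only those groups in the fit (adjusted p = 0.0464) or without either 0 h array (0.0461 and 0.0456). CHLM at 24 h was -1.05 under quantile normalization and -0.84 with equal medians.

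Among root markers, PYK10 was lower in the later groups. The 3 measured of 10, PYK10, EXPA7 and EXPA18, had a summed signal of 2259 to 2450 at 0 h, 1813 to 2067 at 1 h, 1042 to 1822 at 24 h and 818 to 1086 at 7 days, and none was at 0. PYK10 made up nearly all of that sum. This gene, a root and hypocotyl beta-glucosidase, was called lower at 24 h with a log2 change of -0.81 (limma adjusted p = 0.0406) and at 7 days with -1.40 (0.00386), whereas the root hair expansins were not called, with -0.16 and -0.35 for EXPA7 and 0.27 and 0.38 for EXPA18 at the same times. The 24 h call of PYK10 held in 7 of 16 alternatives. It was lost when 24 h replicate 2, either 0 h array or either 1 h array was left out, and with no filter (0.0915), equal medians (0.0938), no intensity trend (0.0640) or only those groups in the fit (0.0645). Without 24 h replicate 2 its change was -0.39 (0.331), out of a range of 0.00748 to 0.331 over the alternatives. The part of a change in root tissue in the values of CHLM and CHLI2 was not tested.

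Of 20 chlorophyll-binding antenna genes 3 were tested. Against 0 h, 1 of the 3 fell at 24 h and 1 at 7 days, and 0 rose. Of all tested probe sets, 15.3% fell at 24 h and 10.7% at 7 days. LHCB4.1 was not called in any comparison, with changes of -0.033 at 24 h and 0.045 at 7 days. LHCB4.2, a minor antenna protein of photosystem II, had signals of 2565 and 3965 at 0 h, 3480 and 3528 at 1 h, 1398 and 1754 at 24 h, and 2745 and 2265 at 7 days. Like CHLM it was lowest on both 24 h arrays. It changed by -1.02 at 24 h against 0 h (limma adjusted p = 0.00780; range over the alternatives 0.000383 to 0.0590). That call was lost without 0 h replicate 2 (0.0521) or 24 h replicate 1 (0.0590). LHCB4.2 changed by -1.16 at 24 h against 1 h (0.00397). LHCB4.3 changed by -2.59 at 7 days against 0 h (0.00120), with signals of 69.9 and 41.5 at 7 days and of 437 and 305 at 0 h.

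The genes with the most similar pattern over the 8 arrays were found by Pearson's r on the log2 scale among 8124 tested probe sets of a single gene. These r values describe 8 points that share their arrays and carry no p. For CHLM the 5 highest were PAHX (0.992), AT5G18850 (0.986), AT5G44020 (0.986), AT5G64500 (0.985) and AT5G13140 (0.985). PAHX, a phytanoyl-CoA 2-hydroxylase, had mean signals of 286 at 0 h, 285 at 1 h, 146 at 24 h and 198 at 7 days, and AT5G44020 had 1645, 1523, 454 and 787 in the same order. Each had its lowest mean at 24 h and an intermediate one at 7 days. An r above 0.95 with CHLM was reached by 67 genes.

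For CHLI2 the 5 highest were AT3G22230 (0.988), AT5G55450 (0.983), 2A6 (0.979), AT5G02450 (0.978) and AT3G47380 (0.975), and 33 genes had an r above 0.95. AT3G22230 had mean signals of 564 at 0 h, 540 at 1 h, 715 at 24 h and 1217 at 7 days, and AT5G55450 had 99.1, 114, 262 and 730. Both were highest at 7 days with 24 h in between. After quantile normalization 2 of the 5 named for CHLM and 3 of the 5 named for CHLI2 were again among the 5 most similar.

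Pathway genes were not among the most similar. SIRB ranked 129 for likeness to CHLM (r = 0.935) and HEME1 ranked 136 (0.933). The pathway gene most like CHLI2 was PORB, at rank 453 (0.811). CHLM and CHLI2 had an r of -0.51 with each other.

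**Figure D4:**
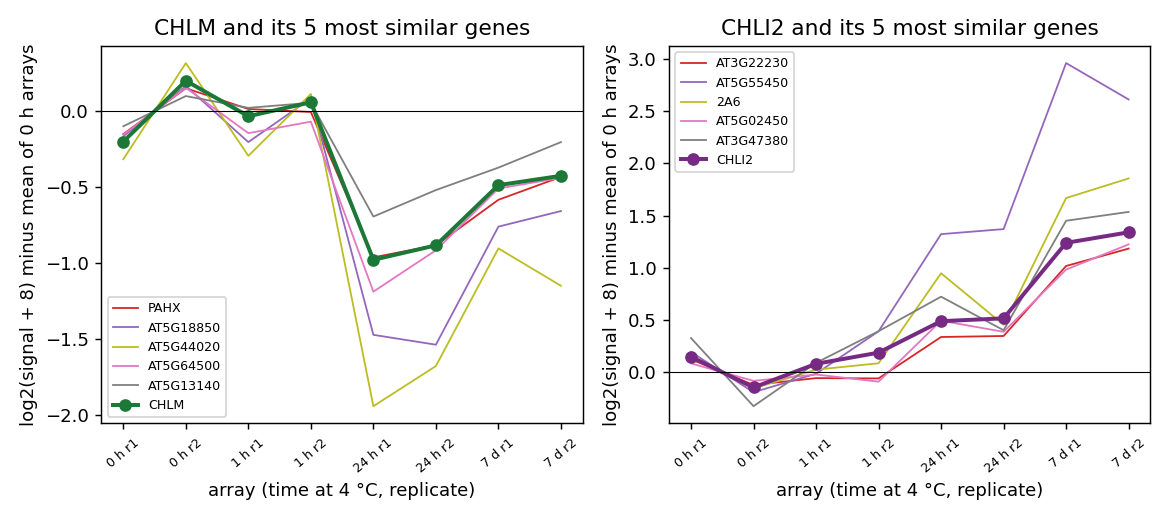
Signal of CHLM and CHLI2 and of the 5 genes most like each, as log2(signal + 8) minus each gene's mean at 0 h, on the 8 arrays by time at 4 °C. Lines join the arrays only to guide the eye. The genes beside CHLM are lowest on the 24 h arrays and those beside CHLI2 are highest on the 7-day arrays, the pattern by which they were selected.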

How the data were processed

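The deposited table holds 1 linear signal intensity per probe set and array. Per the submitters' processing notes the authors derived these with MAS5, whose version and settings the sources used here do not give. Trimming 2% of probe sets at either end left a mean of 100.008 to 100.01 on every array, and no further normalization was applied. Of 22810 probe sets, 64 are controls, 13513 pair with 1 gene, 503 with several and 8730 are unlisted in the annotation. Names were updated through a RefSeq table of TAIR10.1, which 13436 matched.

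Tests were run on the 15017 probe sets that exceeded, on 2 or more arrays, the array's 40th percentile (a signal of 23.1 to 28.0). A mean per group was fitted to log2(signal + 8) with limma 3.58.1 in R 4.3.3, with variances moderated along an intensity trend (4 residual and 7.67 prior degrees of freedom). The fit was tested on simulated data in which arrays varied independently, so that test does not cover deviations shared between arrays. Tests are two-sided, and the median SE over probe sets was 0.24. Precision is limited by the number of arrays.

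The members and gene lists were chosen with earlier results of these data known. Genes were named by rule: the pair, every measured pathway gene, the called antenna and photosystem genes with the largest change, the 5 genes most like each member, and COR15A. Marker genes describe the tissue, and they cannot separate a change in tissue from a change in their own transcripts. Same-numbered arrays of different groups were compared by their deviations from the group means. The correlations were 0.39 (0 h with 1 h), 0.40 (0 h with 24 h) and 0.24 (1 h with 24 h). With 7 days they were -0.21, -0.03 and -0.17 for 0 h, 1 h and 24 h. Same-numbered arrays of 0 h, 1 h and 24 h thus shared part of their deviation. The main model did not pair arrays, and a replicate block was tried as an alternative. The alternatives tried were the pseudocount, normalization, filter, intensity trend, samples in the fit, a replicate block and leaving out each array.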

Additional observations from a re-analysis of the deposited data

Results flagged for a closer look

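In the tetrapyrrole pathway, the change of HEMF2 differed between times: its 7-day value was 1.21 above its 24 h value on the log2 scale (limma adjusted p = 0.0398), with 7-day signals of 30.1 and 24.1 and 24 h signals of 7.21 and 7.01. HEMF2 passed the brightness filter through its 0 h and 7-day arrays alone, so a higher value at 7 days was favoured, and with no filter the call was lost (0.0671). It held in 7 of 16 alternatives, over which the log2 change ran between 0.59 and 1.78 and the adjusted p between 0.0210 and 0.205. It was also lost with only those groups in the fit (0.0856), without 7-day replicate 1 (0.205) or 7-day replicate 2 (0.0961), without 24 h replicate 1 (0.0898) or 24 h replicate 2 (0.102), without 0 h replicate 1 (0.0571) or 0 h replicate 2 (0.0566), and without 1 h replicate 2 (0.0552).

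Among the antenna genes, LHCB4.3 also differed between times, with a log2 change of -1.95 for 7 days against 24 h (limma adjusted p = 0.0133; range over the alternatives 0.000654 to 0.0887). Its signals were 69.9 and 41.5 at 7 days, against 279 and 193 at 24 h. The call was lost without 24 h replicate 1 (0.0758) or 7-day replicate 2 (0.0887).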

How the results depend on the processing

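Over the 16 alternatives the log2 change of CHLM at 24 h ran between -1.13 and -0.73 against 0 h and between -1.06 and -0.81 against 1 h, and that of CHLI2 at 7 days against 0 h between 1.14 and 1.44. The pair was selected on these changes, so the ranges show how much the values move and add no support. CHLI2 at 24 h became called with quantile normalization (0.53) and equal medians (0.59), and CHLM at 7 days with quantile normalization (-0.61). CHLI2 at 7 days against 24 h ran between 0.74 and 0.84 with an array left out, and was not called without either array of 24 h or 7 days. The uncalled 1 h changes depended on single arrays: CHLM ran between -0.19 and 0.21, and was -0.024 with equal medians, and CHLI2 ran between -0.014 and 0.28.

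Called pathway genes, beside the pair, numbered 4 at 24 h (1 to 5 with an array left out), 2 at 7 days (0 to 2), 3 for 24 h against 1 h (1 to 3) and 1 for 7 days against 24 h (0 to 1; 0 with no filter and 0 with only the 2 groups compared). Calls over all probe sets numbered 48 at 1 h (lowest 16, without 0 h replicate 2), 4074 at 24 h (2694, without 0 h replicate 1), 2989 at 7 days (1472, without 7-day replicate 2), 3906 for 24 h against 1 h (2042, without 1 h replicate 1) and 1396 for 7 days against 24 h (291, without 7-day replicate 1).

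With a replicate block CHLM at 24 h stayed at -0.93 and CHLI2 at 7 days at 1.29, no call of the pair changed, and PORB at 24 h became called against 0 h (adjusted p = 0.0378) and against 1 h (0.0444). Promoter motifs and other probe sets of the pair were not run. Of the measured antenna genes, LHCB4.1 changed its direction at 7 days, from an uncalled 0.045 to a called -0.38 with quantile normalization. That setting also called LHCB4.1 lower at 24 h against 0 h (-0.40) and against 1 h (-0.37). It called LHCB4.2 lower at 7 days against 0 h (-0.78). With 2 arrays per group, intervals are wide, and a missed call does not show that a gene kept its level.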
